A study of Arabidopsis thaliana with 16 samples.

Results

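The columella root cap is the central column of cells at the root tip, beneath the growing meristem. It was represented by 3 of the 16 Affymetrix arrays in a survey of transcript levels across 5 root cell populations of Arabidopsis thaliana (ecotype Columbia). Its arrays were chosen by their titles, not by any measured value. All arrays came from seedling roots 6 days after germination that had spent 24 h on a medium without iron that contained 0.3 mM ferrozine, a chelator of ferrous iron. Roots were digested to protoplasts, fluorescent cells were sorted, and their RNA was amplified in a 2-cycle protocol before hybridisation. Columella cells carried the PET111 reporter (n = 3 arrays). The other populations were epidermis with lateral root cap (WER::GFP, n = 4), cortex (CORTEX, n = 3), endodermis with quiescent center (SCR::GFP, n = 3) and stele (WOL::GFP, n = 3), called epidermis, cortex, endodermis and stele below. Each reporter defined its population, so a cell that lay in the tissue but did not fluoresce was not measured. Iron-sufficient arrays were not analysed here, and every value is a level under iron deficiency, not a response to it.

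Columella cells are known for dense starch-filled plastids, the statoliths, which settle with gravity and whose position redirects auxin flow through the root cap. Auxin levels are high at the root tip, and columella cells express repressors and conjugating enzymes that act on that hormone. The outermost cap cells are shed into the soil, with help from enzymes that loosen the wall between cells. New columella cells come from stem cells next to the quiescent center, and mature columella cells no longer divide.

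The columella arrays were alike and stood apart from the other populations. Over the 16221 tested probe sets, their correlation (r) among themselves was 0.952 to 0.967. It was 0.759 to 0.836 with epidermis arrays and 0.639 to 0.802 with those of cortex, endodermis and stele. These correlations run across genes, which are no replicates, and only describe the arrays. The authors' scaling had brought every array to 1 trimmed mean, and between 58.3 and 59.9% of probe sets in the columella arrays reached the signal of 38.1 used as the filter, against 54.3 to 66.3% in the others. Epidermis replicate 4 correlated with the other epidermis arrays at 0.894 to 0.938, where those 3 gave 0.970 to 0.981 among themselves. The number of arrays limits the precision.

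Columella marker genes were high in the arrays of that label. Their list was chosen with earlier results of these data known, so it is no independent check of the label. All 6 columella markers that the annotation named and the filter kept were higher in columella than in each other population: the root cap polygalacturonase RCPG (AT1G65570), the starch gene APL4, the Aux/IAA genes IAA20 and IAA33, the gravity-signalling gene of the LAZY1 family called LZY4 here (AT1G72490, also known as DRO1), and ACR4, a receptor kinase that guides divisions of columella stem cells. Their summed signal was 9661 to 11051 in the columella arrays, 1008 to 3915 in epidermis and 86.1 to 972 in cortex, endodermis and stele. Mean columella signals of APL4, LZY4, IAA20 and IAA33 were 346, 552, 631 and 1105, so RCPG made up most of the columella sum. The annotation named 6 of the 16 listed columella markers. ACR4 (AT3G59420) read 143, 127 and 244 in the columella arrays, and 2.52, 6.62 and 73.0 as the lowest, median and highest of the other 13 arrays, without overlap (log2 difference 2.82, SE 0.27, adjusted p = 2.3e-07 in limma).

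Markers of the other populations were low in columella, though not at 0. The epidermal markers EXPA7, EXPA18 and TRY summed to 130.3 to 241 in columella, 469.5 to 1132 in epidermis and 322 to 1326 in cortex, so this list did not single out the epidermis. All 3 were lower in columella than the mean of the other 4, and 1 of them was when any of 6 arrays was left out, columella replicate 3 among them. The endodermal receptor gene GSO1 (AT4G20140), which monitors the Casparian strip barrier, read 79.8, 106 and 51.6 in columella against 4447 to 5956 in endodermis. The cortex markers AT1G09750 and UGT84A1 summed to 8.18 to 30.0 in columella and 715 to 1677 in cortex. None of the listed stele markers was named by the annotation. In bulk RNA of sorted cells, fewer cells of a type and less RNA per cell cannot be told apart.

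The comparison asked which transcripts set the columella apart from the rest of the root under iron deficiency. Against the unweighted mean of the other 4 populations, 3705 of 16221 probe sets were higher in columella (22.8%) and 3966 were lower (24.4%), at an adjusted p under 0.05 in limma. The median log2 difference of all tested probe sets was -0.03. A stricter set was called enriched when columella exceeded each of the other 4 populations in all 4 pairwise tests, and depleted when it lay below each. There were 1296 enriched probe sets (7.99%) and 774 depleted ones (4.77%). All 3 columella arrays lay above all 13 others in 1228 of the enriched set and below all 13 in 646 of the depleted set. Over all 16221 tested probe sets these numbers were 1632 and 877, and both sets were chosen for such differences. Leaving out columella replicate 3 lowered the depleted count to 500, of which 478 were among the 774, and the enriched count to 902, of which 893 were among the 1296. Without epidermis replicate 4 the counts were 1333 enriched and 771 depleted. Columella replicate 3 held the lowest of the 3 columella signals in 67.6% of depleted probe sets and the highest in 58.1% of enriched ones, against 33.3 and 37.2% of all tested probe sets. The part of columella replicate 3 in the depleted set beyond these counts was not tested.

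**Figure D1:**
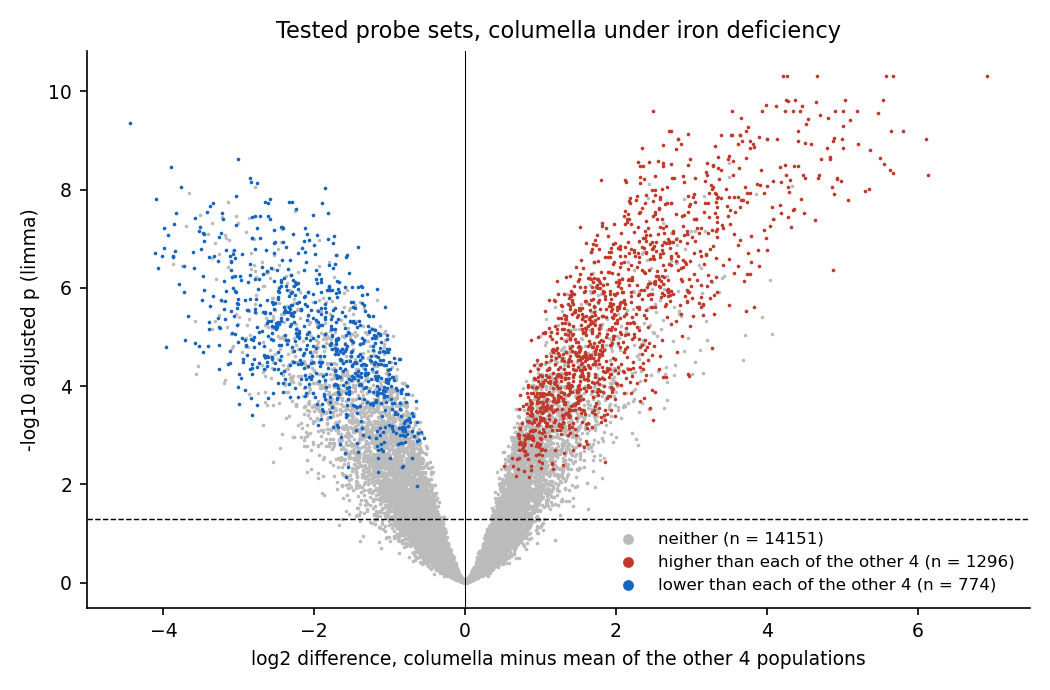
Log2 difference between columella and the mean of the other 4 populations (x axis) against -log10 of the adjusted p from limma (y axis) for each of 16221 tested probe sets; the dashed line marks an adjusted p of 0.05. The 1296 enriched probe sets reach further from 0 than the 774 depleted ones, with 24 enriched and 0 depleted at 32-fold or more.

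Enriched transcripts were abundant in columella. Their median signal was 588 in columella, 178 in epidermis, 138 in endodermis, 124 in stele and 105 in cortex, and 449 of them reached 1000 or more in columella. Together they made up 21.1% ± 1.81 (SD, n = 3) of the summed signal of tested probe sets in columella, 7.33% ± 0.739 (SD, n = 4) in epidermis and between 4.33 and 4.89% in every array of cortex, endodermis and stele. Since the set was chosen for these differences, the shares describe its weight in the transcriptome. Folds are on the scale of log2(signal + 10.2) and understate changes of low signals. The median fold was 3.61 to the mean of the other 4 and 2.31 to the nearest population. At least 8-fold separated 230 probe sets from the mean and 66 from the nearest population. Every array outside columella lay below the filter signal for 60 probe sets of the set and for 67 of all tested probe sets. Such probe sets passed the filter through their columella arrays alone, so the filter itself favoured their being high in columella.

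Epidermis with lateral root cap, which includes the cap cells that flank the columella, was the nearest neighbour most often. It was the highest of the other 4 populations for 45.8% of the enriched set and for 32.4% of all tested probe sets. Endodermis, which includes the quiescent center, was highest for 29.1% against 29.9%, stele for 15.4% against 18.6%, and cortex for 9.80% against 19.1%.

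Most of the enriched set had no gene symbol. The annotation named 1 gene for 703 of the 1296, of which 105 had a symbol and 598 a locus tag alone, while 13 pointed to several genes and 580 (44.8%) to none. Of all tested probe sets 42.5% had no gene. Without a gene, probe set 255014_at read 1162, 1065 and 1164 in columella against 2.49, 17.8 and 31.8 as the lowest, median and highest elsewhere. Likewise 253217_at read 10168, 8882 and 11161, against 19.7, 75.6 and 519.8. Columella stood above every other array in both, as the rule that picked them required, by 32.1- and 28.2-fold over the nearest population. Probe set 255014_at passed the filter through its columella arrays alone, and was not tested when any of them was left out.

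Among genes known only by a locus tag, several had low signals in all arrays outside the columella. Enriched genes named for their distance to the nearest population, with or without a symbol, were picked among those without overlap. Their lack of overlap was thus fixed by the choice. AT1G26680 read 2073, 1247 and 2730.1 in columella and 3.82, 38.2 and 90.5 as the lowest, median and highest of the other arrays. It was 46.6-fold above the mean of the other 4 (log2 difference 5.54, SE 0.27, adjusted p = 1.5e-10) and 23.7-fold above the nearest, the epidermis. AT4G26880 was the brightest of these loci, at 6484, 6840.2 and 7290.3 in columella, with 34.5, 85.2 and 955 elsewhere. Its highest values outside the columella were in epidermis arrays, and it was 49.9-fold above the mean of the other 4 (adjusted p = 6.5e-10).

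AT3G25810 was even across the columella arrays, at 364, 372 and 399.7, and read 1.08, 10.1 and 40.3 elsewhere. AT4G18450 read 1470.0, 1728 and 1746, against 6.00, 28.0 and 216. AT5G48130 read 1387, 1258 and 1515, against 4.62, 42.1 and 153. In these 3 loci the columella arrays lay close together and, as the choice required, did not overlap with any other array.

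AT3G53040 spread more widely, at 426, 625 and 1292 in columella against 8.80, 30.0 and 56.3 elsewhere. AT3G28540 read 338, 237 and 787 against 1.23, 13.3 and 28.9. Both were still 15.8- and 15.6-fold above the nearest population (AT3G28540 and AT3G53040, in that order), with no overlap. AT3G28530, the gene next to AT3G28540 on the chromosome, read 2615, 2418 and 2749 against 20.3, 47.7 and 254. Its probe set is the 1 of the enriched set whose ID ends in _x_at, which marks probes that can also bind other transcripts. The other loci of this group, AT3G62320, AT5G02070, AT3G10320 and AT5G18470, were 11.8- to 30.4-fold above the mean of the other 4, each without overlap. All 15 genes picked by distance to the nearest population, JRG21, LZY4 and IAA20 included, stayed in the enriched set under every alternative in which they were tested. They were picked as the farthest of the set, so this does not describe the set as a whole. AT3G28540 passed the filter through its columella arrays alone. It was tested in 21 of 24 alternatives, and not when any columella array was left out.

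**Figure D2:**
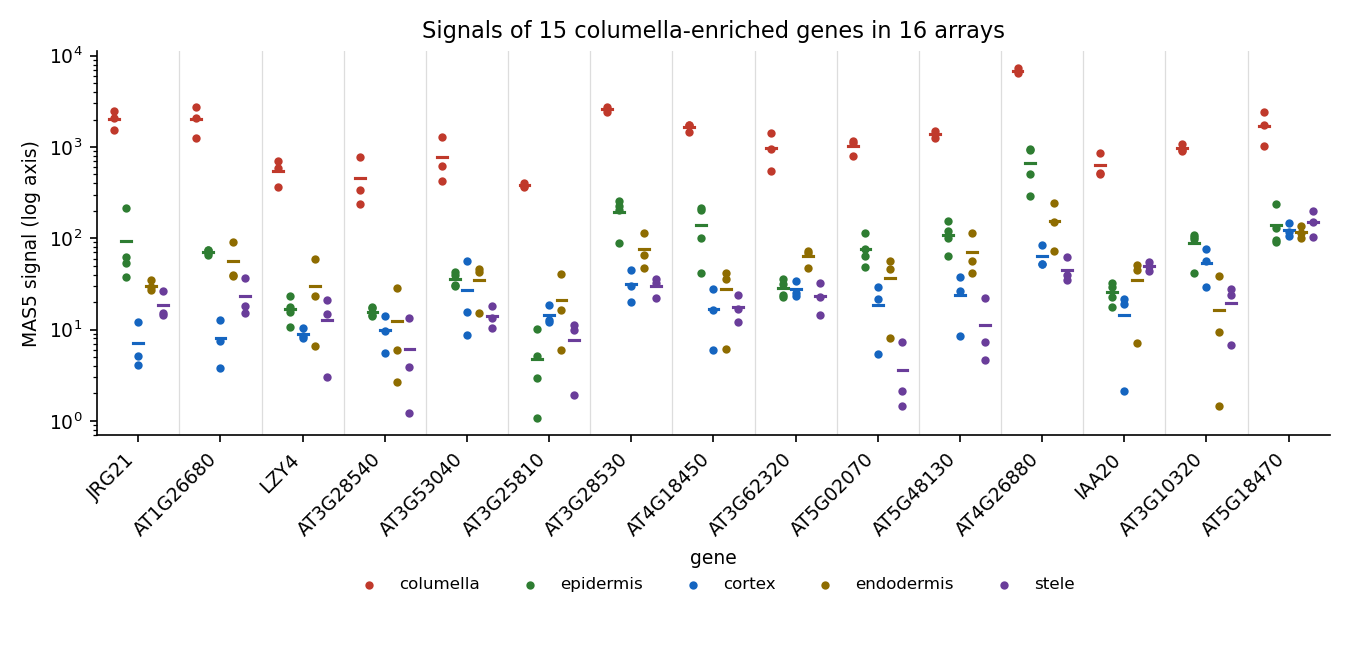
MAS5 signals (y axis, log scale) in all 16 arrays of the 15 enriched genes farthest from their nearest population (x axis); points are arrays, coloured by population, and bars are population means. For each gene the 3 columella points lie above the other 13, as the rule that picked the genes required.

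Genes that inactivate jasmonate or act on auxin were among the enriched genes with a symbol. JRG21 (AT3G55970), a jasmonate oxidase that inactivates jasmonic acid, read 1545, 2488 and 2055 in columella and 4.08, 26.8 and 217 elsewhere, without overlap (56.0-fold above the mean of the other 4, adjusted p = 6.3e-10). JOX2 (AT5G05600), an enzyme of the same activity, read 1952, 2999 and 3039 against 446, 717 and 1589. It too stood above every other array (2.99-fold, adjusted p = 0.00037), while JOX4 gave a log2 difference of -0.33 (adjusted p = 0.49). The jasmonate list thus had 2 of 3 tested members higher and 0 lower, with a median log2 difference of 1.58. Over all tested probe sets 22.8% were higher and 24.4% lower. The annotation named only 4 of the 27 listed jasmonate genes.

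Aux/IAA proteins repress auxin response genes, and most are destroyed when auxin is present. The annotation named 7 of 29 listed family members, and all 7 were tested. Of these 3 were higher, 1 was lower and 3 did not pass (median log2 difference 0.36). Over all tested probe sets 22.8% were higher and 24.4% lower, and IAA20 and IAA33 were also on the columella marker list. The 3 higher ones, IAA20, IAA30 and IAA33, belong to the few members that lack the degradation domain through which auxin removes the others. IAA33 (AT5G57420) read 1488, 674 and 1154 in columella and 5.61, 43.0 and 178 elsewhere, without overlap. IAA34, another such member, gave 0.36 (adjusted p = 0.28), so the group did not move as one.

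GH3 enzymes attach amino acids to auxin or related acids. Of 4 tested members 3 were higher and 1 was lower (median log2 difference 2.29), beside 22.8% higher and 24.4% lower over all tested probe sets. GH3.17 (AT1G28130) read 5622, 7681 and 5247 in columella and 76.2, 1051 and 2438 elsewhere, above every other array (15.3-fold, log2 difference 3.94, SE 0.20, adjusted p = 2.5e-10). GH3.1 (AT2G14960) read 86.4, 314 and 49.6 against 5.57, 21.0 and 121 and overlapped with epidermis, where its mean was 74.0. GH3.3 (AT2G23170) went the other way, at 11.9, 32.8 and 12.2 against 11.9, 185 and 641.

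Some genes of starch synthesis and of starch breakdown were higher in columella. For synthesis, the ADP-glucose pyrophosphorylase subunit gene APL4 and the branching enzyme gene SBE2.2 (AT5G03650) were enriched, and 2 more, APL3 and PTST1, gave log2 differences of 0.54 and 0.57 that did not pass (adjusted p = 0.22 and 0.085). For breakdown, both tested members were enriched, beside 7.99% of all tested probe sets. PWD (AT5G26570), a dikinase that phosphorylates starch so that it can be degraded, read 1071, 1151 and 1757 in columella and 40.3, 104 and 177 elsewhere. The plastid disproportionating enzyme gene DPE1 (AT5G64860) read 860.2, 1258 and 1018 against 40.6, 82.2 and 382. Neither overlapped with another array, and they were 11.7- and 9.38-fold above the mean of the other 4. Most genes of both starch lists, 17 of 21 and 17 of 20, were not named by the annotation.

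PPDK (AT4G15530), which interconverts pyruvate and phosphoenolpyruvate, read 2543, 3738 and 3107 in columella and 1.01, 48.8 and 491 elsewhere (45.2-fold, adjusted p = 2.2e-09). GSTU20 (AT1G78370), a glutathione transferase, was dimmer, at 105, 239.6 and 314 against 2.67, 7.35 and 18.4. It passed the filter through its columella arrays alone, and was not tested when any of them was left out. KICP-02 (AT3G50240) read 609.7, 521 and 944 against 2.44, 51.4 and 115. PPDK, GSTU20 and KICP-02 were all without overlap. VI1 (AT1G62660), a vacuolar invertase that splits sucrose, was instead depleted, at 1587, 1167 and 653 against 1649, 3001 and 9029.6.

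Of 4 families that act on the cell wall, the endoglucanases, expansins and xyloglucan endotransglucosylases held both higher and lower members, and the pectin methylesterases lower ones only. Their counts stand beside 22.8% higher and 24.4% lower over all tested probe sets. GH9B6 (AT1G23210), of the endoglucanase family 9, read 3303, 3013 and 4078 in columella and 2.05, 24.8 and 665 elsewhere. Its 70.2-fold difference from the mean of the other 4 (adjusted p = 5.1e-09) fell to 9.26-fold against epidermis, whose mean was 389. In that family 3 of 11 members were higher and 5 lower (3 without columella replicate 1), among them GH9B17 (log2 difference -2.29) and GH9C1 (-2.09), and the median was -0.33.

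Expansins, which loosen walls, had 4 of 14 members higher and 6 lower (median -0.55). EXPA4 (AT2G39700) read 806, 1252 and 1343 against 23.2, 55.3 and 129.8, without overlap (log2 difference 4.12, SE 0.21). EXPA9 (AT5G02260) was also higher (2.79, adjusted p = 3.1e-07), but at 1099, 2156 and 1505 it overlapped with epidermis, whose mean was 1050. EXPA8 and EXPB1 were lower, by log2 differences of -2.05 and -1.90.

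Xyloglucan endotransglucosylases, which cut and rejoin wall polymers, had 1 of 8 members higher (EXGT-A3, 1.60) and 4 lower, led by XTH18 (-2.47), XTH16 (-2.02) and XTH33 (-1.96). XTH18 (AT4G30280) read 126, 109 and 64.5 in columella against 317, 498 and 1134 elsewhere, without overlap. All 4 tested pectin methylesterase genes, which modify pectin, were lower, from -2.36 (PMEPCRF) to -0.85 (PMEAMT). Without columella replicate 3 only 2 of these 4 passed.

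Serine carboxypeptidase-like genes gave 6 higher and 4 lower of 14 (median -0.19), the latter 2 without columella replicate 3, beside 22.8% higher and 24.4% lower over all tested probe sets. This family, the tubulins and the IQ-domain genes were taken up after their values had been seen. scpl48 (AT3G45010), a marker of cells prepared for developmental death, read 9224, 10406 and 10106 in columella and 567, 2086 and 3334 elsewhere. scpl20 (AT4G12910) read 3382, 3575 and 3811 against 87.1, 328 and 761. Both stood above every other array, and scpl40 was depleted (-2.76).

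Of 4 tested genes that mark developmental cell death, scpl48 and DMP4 were higher, and 2 did not pass. Over all tested probe sets 22.8% were higher. DMP4 (AT4G18425) read 1831, 913 and 909.9 in columella and 23.1, 116 and 795 elsewhere; it was 6.38-fold above the mean of the other 4 (adjusted p = 0.00019) but did not pass against stele (1.88-fold, adjusted p = 0.25). The protease gene PASPA3 gave 0.28 (adjusted p = 0.47) and EXI1 gave 0.95 (adjusted p = 0.099). The list therefore did not move as one in the columella arrays.

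Among transcription factors, 3 of 6 tested WRKY genes were enriched (WRKY22, WRKY6 and WRKY20) and WRKY47 was depleted. Over all tested probe sets 7.99% were enriched and 4.77% depleted. WRKY22 (AT4G01250), known from defence signalling, was nearly the same in the 3 columella arrays, at 1242, 1219 and 1245, and read 79.4, 163 and 583 elsewhere. IQ-domain proteins bind calmodulin, and IQD22 (AT4G23060) read 1060.0, 1007 and 1584 against 41.5, 111 and 267. IQD19 (AT4G14750) was its opposite, at 57.5, 21.8 and 3.73 against 89.8, 224 and 485. Beside the overall 22.8% higher and 24.4% lower, the family held 2 higher and 4 lower genes of 10, and 1 higher gene when any of the columella arrays was left out, or cortex replicate 2 or 3, or endodermis replicate 1 or 3.

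Families of secondary metabolism were mixed. UDP-glycosyltransferases, which attach sugars to hormones and phenolics, had 11 of 35 members higher and 13 lower (median -0.14). Without columella replicate 1, 9 of 33 were higher and 9 lower. Without replicate 2 these were 8 and 12 of 32, and without replicate 3 they were 9 and 9 of 33. UGT71B5 (3.34) and UGT72E1 (2.81) were at the top, and UGT71C1 (-2.95) and UGT72E3 (-2.35) at the bottom. UGT72E1 and UGT72E3 both act on precursors of lignin. Glutathione transferases had 5 of 12 higher and 1 lower (GSTU27, -1.83), with a median of 0.56. Leaving out any 1 columella array gave 4 of 11 higher. Cytochrome P450 genes had 2 of 11 higher and 3 lower, from CYP71B29 (-2.37) to CYP71B6 (1.99). Over all tested probe sets the shares were 22.8% higher and 24.4% lower.

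**Figure D3:**
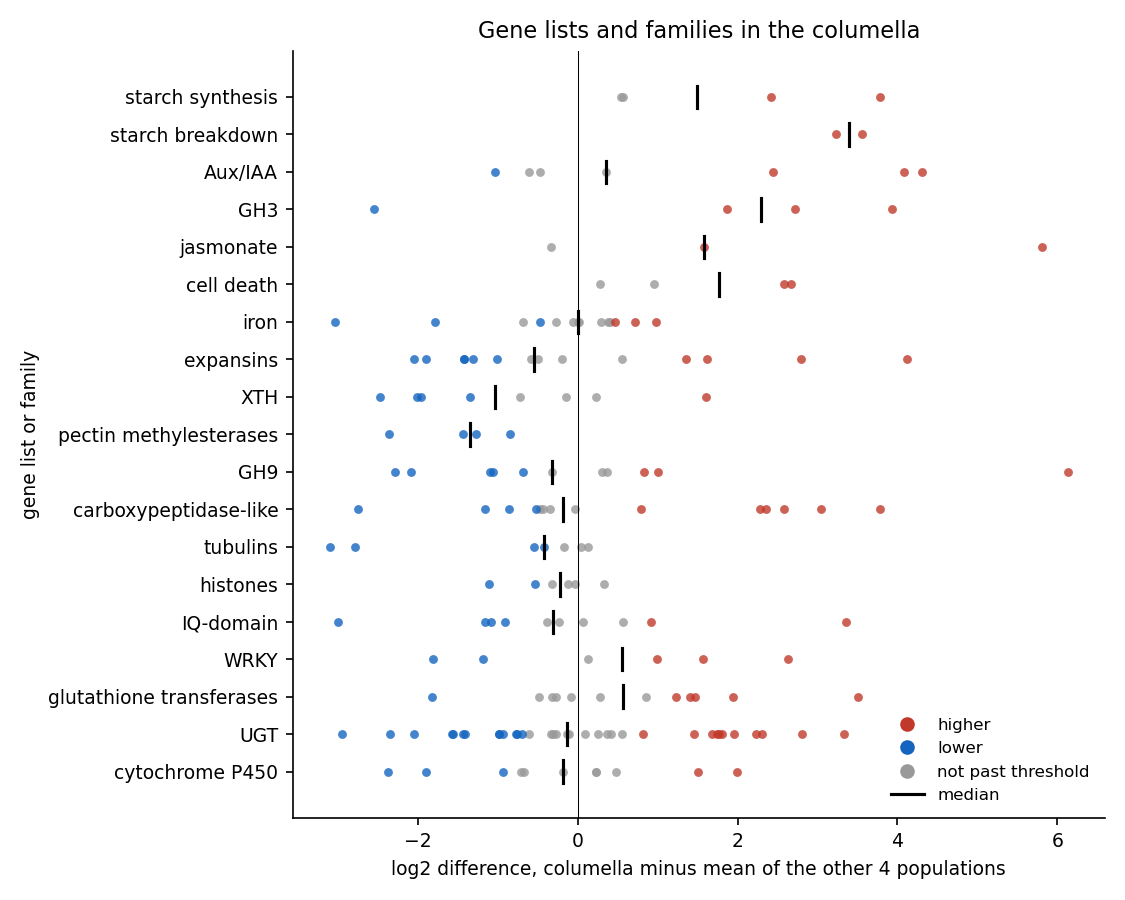
Log2 difference between columella and the mean of the other 4 populations (x axis) for each tested member of 19 gene lists and families (y axis); points are genes, red where higher and blue where lower at an adjusted p under 0.05, and black bars are medians. The tested starch genes lie to the right of 0, pectin methylesterases to its left, and expansins, endoglucanases (GH9) and UGT genes on both sides.

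The depleted set was marked by low signals in columella and high ones in cortex. Its median signal was 106 in columella, 399 in epidermis, 453 in endodermis, 451 in stele and 770 in cortex. It held 3.42% ± 0.768 (SD, n = 3) of the summed signal in columella and 14.5% ± 0.375 (SD, n = 3) in cortex. Cortex was the highest of the other 4 populations for 51.4% of the depleted set, against 19.1% of all tested probe sets, and epidermis was the lowest for 45.5%, against 29.4%. The median fold was 3.70 to the mean of the other 4 and 2.27 to the nearest population. Every columella array was below the filter signal for 140 probe sets of the set and for 1876 of all tested probe sets. The annotation named 1 gene for 400 of the 774 (107 with a symbol and 293 with a locus tag alone), several for 32 and none for 342 (44.2%).

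Depleted genes named for their distance to the nearest population, with or without a symbol, were likewise picked among those without overlap. Their lack of overlap was thus fixed by the choice. AT4G26010 was the depleted gene farthest from its nearest population. It read 46.0, 40.1 and 34.1 in columella and 411, 646 and 1834 as the lowest, median and highest of the other 13 arrays, without overlap. Its log2 difference was -3.90 (SE 0.26, adjusted p = 3.5e-09), and it was 9.89-fold below the endodermis. AT1G35350 read 2.54, 4.20 and 2.07 in columella against 41.8, 80.1 and 119, at the bottom of the scale in all 3 arrays. AT3G07900 read 29.8, 6.45 and 7.62 against 70.2, 149 and 659.7.

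In other depleted loci the columella arrays differed widely. AT5G04120 read 279.7, 185 and 27.2 in columella and 541, 1639 and 6956 elsewhere (17.3-fold below the mean of the other 4, adjusted p = 1.9e-07). AT5G44020 read 964, 551 and 71.4 against 1469.9, 3200.1 and 7114, and AT3G05920 read 203, 82.8 and 6.53 against 274, 632 and 2827. None of these arrays overlapped with another population, and columella replicate 3 was the lowest in each. It was the lowest in 12 of the 15 genes picked by this rule. AT2G27360, AT4G28085, AT1G78260, AT5G12880 and AT3G15240 completed the loci without a symbol, at log2 differences of -3.84 to -2.99. All 15, these loci included, stayed in the depleted set under every alternative in which they were tested. They too were picked as the farthest of their set, so this does not describe the set as a whole. Probe sets 261474_at and 252222_at, without a gene, were the farthest below among those, by 8.05- and 7.93-fold from the nearest population.

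**Figure D4:**
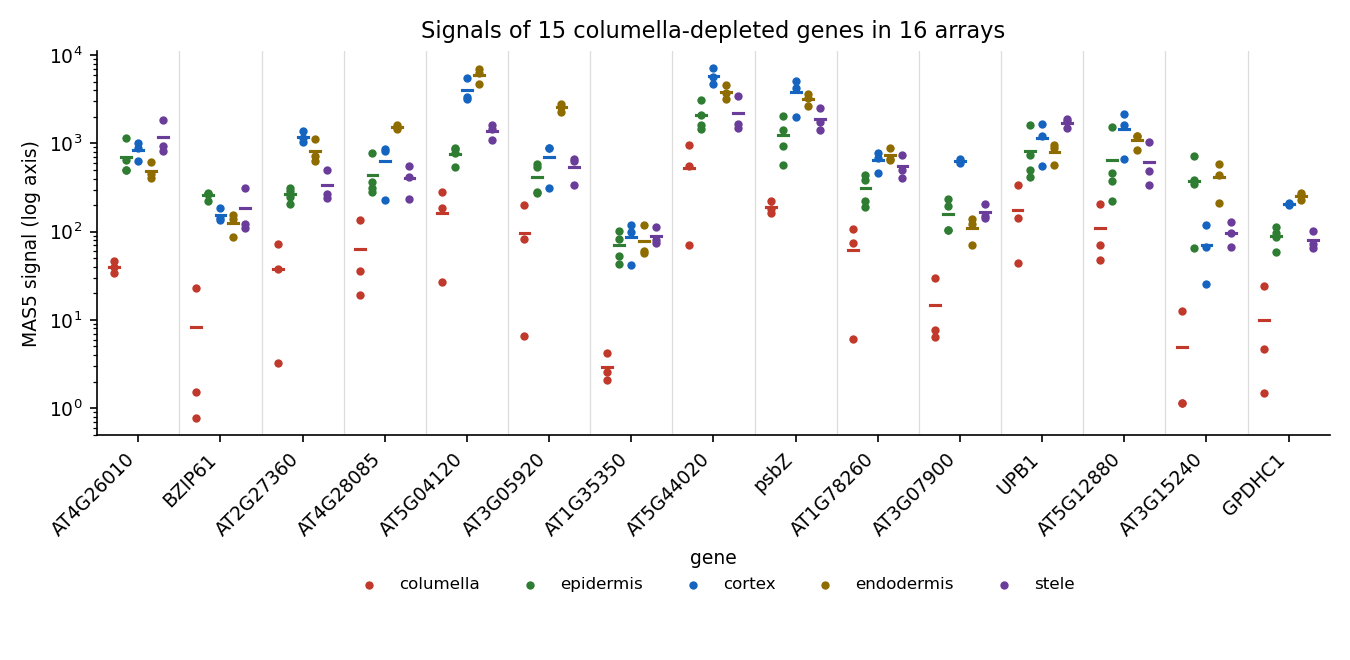
MAS5 signals (y axis, log scale) in all 16 arrays of the 15 depleted genes farthest from their nearest population (x axis); points are arrays, coloured by population, and bars are population means. The 3 columella points lie below the other 13 for each gene, as the rule that picked the genes required. They are spread more widely than in the enriched genes.

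Depleted genes with a symbol included regulators of growth. BZIP61 (AT3G58120), a transcription factor of the bZIP class, read 1.52, 22.9 and 0.776 in columella and 86.0, 153 and 316 elsewhere. UPB1 (AT2G47270), a bHLH factor known to set where root cells stop dividing and start to elongate through reactive oxygen, read 337, 142 and 43.9 against 416, 955 and 1874. GPDHC1 (AT2G41540), a cytosolic glycerol-3-phosphate dehydrogenase, read 24.0, 1.48 and 4.72 against 59.0, 113 and 276. These 3 genes did not overlap between columella and the other arrays, although UPB1 came close in columella replicate 1.

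Tubulins, which form microtubules, had 4 of 7 tested genes lower and 0 higher (median -0.43), beside 24.4% lower and 22.8% higher over all tested probe sets. TUB1 (AT1G75780) read 461, 249.6 and 46.7 in columella and 595, 1719.7 and 3957 elsewhere (8.60-fold, adjusted p = 2.9e-06). TUB5 (AT1G20010) read 269, 213 and 51.5 against 454, 992 and 2965. Both were depleted, while TUB6, TUB7 and TUA1 gave differences of -0.18 to 0.12 that did not pass. TBL41 (AT3G14850), of a family that acetylates wall polymers, read 35.7, 61.0 and 42.4 against 148 to 3214, and the beta-glucosidase gene BGLU15 (AT2G44450) read 129, 97.6 and 76.6 against 387, 575 and 1152.

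Of 6 histone genes 2 were lower (1 without columella replicate 2), none was higher, and the median was -0.22. Over all tested probe sets 24.4% were lower and 22.8% higher. HTR12 (AT1G01370), the histone of centromeres, gave -1.11 (adjusted p = 0.0023). The mitotic kinase gene AUR1 was lower (-1.16, adjusted p = 0.0026), AUR2 gave 0.26 (adjusted p = 0.40), and the replication gene MCM7 gave -0.55 (adjusted p = 0.15), and was lower without epidermis replicate 4 (-0.64). Of genes that mark the quiescent center and meristem, AGL42 was lower (-1.36, adjusted p = 0.00023). BBM was higher (0.93, adjusted p = 0.034), at 81.6, 40.7 and 124 against 2.13, 35.3 and 194, and lost that call under 4 alternatives, 2 of them leaving out columella replicate 1 or 3 (adjusted p = 0.11 and 0.26).

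Transcripts of the plastid genome were low in the columella arrays without exception among those tested. All 69 plastid genes tested fell below the mean of the other 4, as 24.4% of all tested probe sets did. Of the 69, 43 were depleted, beside 4.77% of all tested probe sets. The median log2 difference was -2.14, with a range of -3.46 to -0.88. Every functional group took part. The 20 photosystem genes had a median of -2.37, the 6 cytochrome b6f genes -2.28, the 6 ATP synthase genes -1.49, the 10 genes of the NADH dehydrogenase-like complex -1.98, the 4 RNA polymerase genes -2.21 the 15 ribosomal protein genes -1.97 and the 8 remaining genes -2.78.

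The plastid gene farthest from its nearest population, psbZ of photosystem II, read 221, 164 and 183 in columella and 563, 2037 and 5138 elsewhere. petB, which encodes a cytochrome b6f subunit, read 215, 294 and 324 against 859.5, 1633 and 5588. The columella arrays lay below all others in both. The size of the difference depended on the population compared. Its median over the 69 genes was -3.51 against endodermis (69 lower in that pairwise test), -2.47 against cortex (67 lower), -1.59 against stele (60 lower) and -1.22 against epidermis (43 lower). Plastid transcripts made up 0.167 to 0.229% of the summed signal in columella and 0.396 to 2.35% in the other arrays.

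Mitochondrial transcripts moved in the same direction. Of 14 tested mitochondrial genes 13 were lower and 8 depleted, with a median of -1.79, and cox2 (-0.42, adjusted p = 0.13) did not pass. Over all tested probe sets 24.4% were lower and 4.77% depleted. nad1, of respiratory complex I, read 33.3, 7.45 and 50.2 in columella and 85.0, 225 and 602 elsewhere, without overlap (log2 difference -2.85, SE 0.30, adjusted p = 5.4e-07). nad4, of the same complex, read 456, 455 and 591 against 768, 2087 and 8056. The medians were -2.52 against endodermis, -2.11 against cortex, -1.31 against stele and -0.996 against epidermis, the same order as for the plastid.

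Measures of RNA quality did not set the columella arrays outside the others. Their 25S ribosomal RNA control read 3143 to 4999, within the 586 to 8289 of the other arrays. It was lower in every array of cortex (1178 to 1656) and stele (586 to 2629), and overlapped with endodermis and epidermis. The ratio of 3' to 5' signals of control transcripts, averaged, was 2.24 to 2.62 on the log2 scale, within the 1.90 to 3.39 elsewhere. In endodermis the ratio was 2.66 to 3.39, above every columella array, and in the other populations it overlapped with columella. The mean plastid share was also highest in endodermis, at 1.89%, against 1.37% in cortex, 0.763% in stele and 0.592% in epidermis. The part of RNA length or of the amplification in the organelle differences was not tested.

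**Figure D5:**
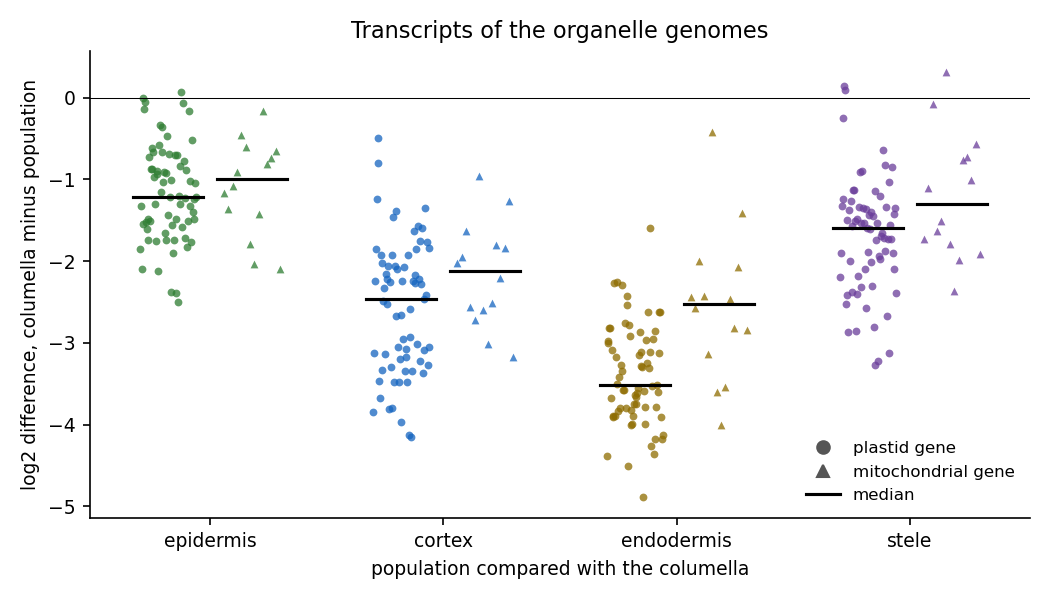
Log2 difference between columella and each other population (x axis: epidermis, cortex, endodermis, stele) for 69 plastid genes (circles) and 14 mitochondrial genes (triangles); black bars are medians. Nearly all points lie below 0, with the plastid medians running from -1.22 against epidermis to -3.51 against endodermis.

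Genes of the iron deficiency response were called in the columella about as often as all tested probe sets. Of 14 tested members of the iron list 3 were higher, 3 lower and 8 did not pass, beside 22.8% higher and 24.4% lower overall; 0 were enriched and 1 was depleted, with a median log2 difference of 0.01. F6'H1 (AT3G13610), the hydroxylase that makes the coumarins roots secrete to mobilise iron, read 15.1, 28.3 and 3.01 in columella and 30.6, 165 and 1172 elsewhere. Its columella arrays lay below all others (log2 difference -3.05, SE 0.40, adjusted p = 8.6e-06). AT3G07720 was lower by 3.45-fold (adjusted p = 3.4e-06), at 236, 208 and 153 against 204, 440.2 and 3759, with overlap.

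BTSL2, a ligase gene of the iron sensing pathway, and bHLH121, a transcription factor gene of the same response, were the iron genes with the largest increases, at 0.98 and 0.72. Both overlapped with other arrays, and neither passed against its nearest population (adjusted p = 0.29 and 0.90). IMA1, the gene of a peptide that signals iron shortage, read 48.1, 54.5 and 34.6 in columella and 9.51, 39.4 and 269.5 elsewhere (-0.27, adjusted p = 0.39). The transcription factor gene BHLH101 gave -0.06 (adjusted p = 0.84), and 27 of the 41 listed iron genes were not named by the annotation.

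Some enriched genes were neighbours on the chromosome. Of 437 enriched genes whose next gene was also tested on at least 1 side, 81 (18.5%) had an enriched neighbour, where 10.04% of all 5168 tested genes with a tested neighbour did. For the depleted set these were 18 of 202 (8.91%) and 4.47%. No test was made of these shares. The enriched neighbours formed 39 pairs and 1 run of 3 genes, AT4G15260, AT4G15270 and UGT71B5 (AT4G15280). AT4G15260 read 130, 162 and 111 in columella and 6.52, 32.4 and 58.6 elsewhere, and AT4G15270 read 113, 127 and 91.1 against 17.0, 47.5 and 89.0. UGT71B5 read 432, 662 and 333 against 13.1, 20.9 and 120.4, and all 3 genes were without overlap. Other pairs joined the glycosyltransferase genes UGT85A2 and UGT85A5, AT3G28530 and AT3G28540, and GH9B6 with AT1G23220. Cross-binding of probes between similar neighbours was not tested.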

How the data were processed

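Transcript levels of sorted root cells were measured on 16 arrays of 5 populations, 1 array per sample. Per the submitters' processing notes, the intensity values deposited by the authors came from MAS5 (no version given) and are linear signals, scaled for each array. Whether replicates are separate cultures is not stated in the labels, and p-values therefore reflect only the spread among these samples. No detection calls or batches were used here.

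Signals entered as log2(signal + 10.2), the 20th percentile of the table. Of 22746 probe sets that are not controls, 16221 were tested, namely those reaching 38.1, the 40th percentile, in 3 or more arrays. In R 4.3.3, limma 3.58.1 fitted a mean per population to the 16 arrays together (eBayes, trend on intensity, with 11 degrees of freedom left). Tests were 2-sided, adjusted by Benjamini and Hochberg over all tested probe sets per contrast at 0.05. SE belongs to the fitted difference. The script was tested on simulated data. Tables and figures were made in Python 3.11.15.

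The array's annotation gave 13513 probe sets 1 gene each, left 8794 without a gene and gave 503 more than 1. Of the 13513, 13436 matched the RefSeq table of assembly TAIR10.1, which gave the neighbours. Where probe sets shared a gene, the brightest stands for it. Names such as RCPG, LZY4, F6'H1, IMA1, BTSL2, JOX2, DMP4 and VI1 were assigned to loci listed otherwise.

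Members, 22 gene lists (297 loci, 58 annotated, 54 tested) and 12 families were chosen with earlier results of these data known. The text names the 15 enriched and 15 depleted genes, and the 10 each with a symbol, that differ most from the nearest population with every columella array outside all other arrays; up to 4 members per list; markers; and at most 2 probe sets each way without a gene. Genes named beyond this rule were chosen after their values were seen. Families were matched by letters of the symbol, trimmed after a first look. Auxin transport, auxin synthesis, auxin receptor and ARF lists had no annotated member. The flavonoid gene DFR gave -0.65 (adjusted p = 0.044), a call lost under 12 of the alternatives. Alternatives were quantile normalization, other pseudocounts and filters, eBayes without a trend, array weights, a replicate block, a mean weighted by array, and leaving out each array. Sequences were not used here.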

Additional observations from a re-analysis of the deposited data

Results flagged for a closer look

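In the only population with 4 arrays, the epidermis, 6 of 54 genes examined had 1 array far from the other 3 (a gap over the range above Dixon's 95% critical value), where chance flags about 1 in 20 groups. Replicate 4 was that array in 5 of the 6. JRG21 read 217 there, against 37.3 to 62.8 in the other epidermis arrays. AT4G28085 read 788, against 283 to 361. AT1G09750 read 61.8, GSO1 read 111 and BBM read 16.3, the last being the lowest of its group. AT3G10320 read 41.4 in epidermis replicate 2, against 99.0 to 109 in the others. Without epidermis replicate 4 there were 1333 enriched and 771 depleted probe sets, of which 1242 and 716 were among the 1296 and 774.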

How the results depend on the processing

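The 4 counts stayed within 1.5 times their main values except the depleted count without columella replicate 3. With 1 array left out, higher probe sets numbered 2773 to 3871, lower ones 2914 to 4232, enriched ones 902 to 1333 and depleted ones 500 to 793; the lowest of each came without columella replicate 3. The replicate numbers do not pair the arrays: deviations of same-numbered arrays correlated at -0.26 to 0.24. With the replicate block, counts were 3768 higher, 4163 lower, 1279 enriched and 757 depleted, and epidermis replicate 4, alone in its number, then carries no weight. Of 154 named genes recomputed, 141 kept their call under every alternative run, and no called one changed direction. Calls were lost under at least 1 alternative by TUA6, BBM, TRY, DFR, HTB11, GH9C3, ATPMEPCRB, ATPMEPCRD and EXPA7, and gained by PTST1, MCM7 and EXI1. HTB2, never called, gave -0.32 with all arrays and -0.531 to 0.0909 with 1 left out, turning without columella replicate 2. Signals near the bottom of the scale limit the depleted set: no detection calls were used, and folds there are compressed by the pseudocount.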
